A study of Mus musculus with 14 samples.

Results

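The genes described here are 35 enzymes, regulators and droplet proteins of fatty acid synthesis and lipid storage. They were chosen by name, with earlier results of these data known, and looked up in a table of 43432 mouse genes. Their counts beside the share over all genes are thus descriptive. All 35 were in the table, once each. All 35 also passed the filter on low values, at least 10 normalized counts in at least 2 of the 14 libraries, which left 17390 genes for testing. The libraries were RNA-seq of SiglecF+, CD11C+ lung cells, the surface phenotype of alveolar macrophages, which are the resident phagocytes of the airspace. Donors were 129S1 males, 10 to 12 weeks old, whose lungs were digested with enzymes before sorting. Bleomycin, a DNA-damaging drug that injures the lung and leads to fibrosis, or water had been given into the trachea (the label of the drug reads 3 U/k). Cells were sorted further by their surface level of MHC class II (MHCII), the protein that presents peptides to helper T cells. The 5 groups were MHCII-low cells from mice given water, called controls here (replicates 1 and 3, so 2 libraries), MHCII-low cells 2 weeks and 4 weeks after bleomycin, and MHCII-high cells at the same times (3 libraries each). Control cells of the MHCII-high sort were not analysed here, so the MHCII-high groups have no untreated counterpart in the comparisons. Nothing in the labels says that libraries of a group came from separate mice, so the p-values measure the spread between these libraries, which may be technical.

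Cells make fatty acids from citrate that has left the mitochondrion. ATP citrate lyase (Acly) and acyl-CoA synthetase (Acss2) supply acetyl-CoA, acetyl-CoA carboxylase (Acaca, Acacb) turns it into malonyl-CoA, and fatty acid synthase (Fasn) joins the units into palmitate with NADPH from enzymes such as malic enzyme (Me1). Elongases lengthen the chain and desaturases add double bonds, and the transcription factors SREBP-1 (Srebf1) and ChREBP (Mlxipl) are known to drive these genes. Acyl chains are then esterified to glycerol and stored as triglyceride in droplets coated by perilipins, from which lipases release them. Alveolar macrophages take up and break down surfactant lipid, and lose this ability in alveolar proteinosis, when they fill with lipid.

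Recovered depth was 15106415 to 88059566 reads per library, and 25 of the 35 genes had at least 100 reads in every library. Mitochondrial ribosomal RNA took 22.5% to 26.2% of reads in MHCII-high cells at 2 weeks but 3.42% to 18.3% in MHCII-low cells at that time. The sort label was checked on 10 alveolar macrophage markers, none of which was at 0 in any group. Their summed level was 376609 to 379005 normalized counts in controls, 472629 to 581701 in 2-week and 401265 to 483965 in 4-week MHCII-low cells, and 312951 to 393099 and 339124 to 393009 in MHCII-high cells at 2 and 4 weeks. Chil3 was a large part of these sums, at 163234 to 199884 in controls and 165183 to 219200 in 2-week MHCII-high cells. Between the same groups Krt19 was 4844 to 5093 against 1838 to 1985. Siglecf and Itgax, which encode the sort markers, were 6461 to 7034 against 3056 to 3769 and 29823 to 29931 against 33405 to 38614.5. The summed level of 10 monocyte-derived or interstitial macrophage markers was 1092 to 1827 in controls and 37103 to 50809 in 2-week MHCII-high cells. Of 5 fat cell markers, Adrb3 was at 0 in every library, Adipoq in every library but replicate 2 of the 2-week MHCII-low cells (11.1 normalized counts), and Cfd reached at most 3.7. The other two were detected in every library, Plin1 at 93.8 and 135 in controls, 15.7 to 173 in MHCII-low cells after bleomycin and 12.6 to 49.9 in MHCII-high cells, and Plin4 at 2.2 to 59.6. In such bulk samples, fewer cells of a type and less RNA per cell cannot be told apart.

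Promoter sequences are shown for 6 genes that differed between groups, chosen by p-value and not by the size of the change. They include genes that were higher and genes that were lower. Of the 35 genes, 30 matched by symbol in the RefSeq promoter table (GRCm38.p6), from 250 bases before the transcription start to 50 after it. Fads1, Scd1, Scd2, Dgat1 and Dgat2 were not matched. The sequences are those of the 6 matched genes with the smallest p in MHCII-low cells at 2 weeks against control or in MHCII-high against MHCII-low cells, written 5′ to 3′ on the gene's strand, with capitals marking any match to the motifs named after them.
Fasn (chr11:120824498-120824797, reverse strand): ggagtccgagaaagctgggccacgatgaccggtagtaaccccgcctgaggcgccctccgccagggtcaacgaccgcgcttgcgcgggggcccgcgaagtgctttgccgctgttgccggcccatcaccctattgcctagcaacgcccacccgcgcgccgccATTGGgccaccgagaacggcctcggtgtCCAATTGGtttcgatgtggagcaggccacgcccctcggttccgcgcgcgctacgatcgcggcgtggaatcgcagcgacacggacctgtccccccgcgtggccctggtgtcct
Fads2 (chr19:10101454-10101753, reverse strand): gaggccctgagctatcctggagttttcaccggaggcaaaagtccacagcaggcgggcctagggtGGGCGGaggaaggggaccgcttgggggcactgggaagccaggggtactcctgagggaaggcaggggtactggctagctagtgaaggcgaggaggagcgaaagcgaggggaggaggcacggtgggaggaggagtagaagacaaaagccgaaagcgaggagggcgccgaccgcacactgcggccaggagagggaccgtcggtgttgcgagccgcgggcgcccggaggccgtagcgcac
Acsl3 (chr1:78657575-78657874, forward strand): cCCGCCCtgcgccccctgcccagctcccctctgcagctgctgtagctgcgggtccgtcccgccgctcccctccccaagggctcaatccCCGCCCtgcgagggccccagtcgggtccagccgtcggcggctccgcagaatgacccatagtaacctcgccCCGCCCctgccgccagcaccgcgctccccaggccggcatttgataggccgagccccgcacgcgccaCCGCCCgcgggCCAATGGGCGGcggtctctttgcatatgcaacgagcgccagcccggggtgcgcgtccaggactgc
Cidec (chr6:113435711-113436010, reverse strand): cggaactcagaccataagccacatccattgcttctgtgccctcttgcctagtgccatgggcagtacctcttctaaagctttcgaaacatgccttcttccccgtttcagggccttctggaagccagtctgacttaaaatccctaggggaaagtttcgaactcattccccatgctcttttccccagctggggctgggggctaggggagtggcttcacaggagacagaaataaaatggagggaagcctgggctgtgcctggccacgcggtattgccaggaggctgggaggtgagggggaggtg
Abhd5 (chr9:122351366-122351665, forward strand): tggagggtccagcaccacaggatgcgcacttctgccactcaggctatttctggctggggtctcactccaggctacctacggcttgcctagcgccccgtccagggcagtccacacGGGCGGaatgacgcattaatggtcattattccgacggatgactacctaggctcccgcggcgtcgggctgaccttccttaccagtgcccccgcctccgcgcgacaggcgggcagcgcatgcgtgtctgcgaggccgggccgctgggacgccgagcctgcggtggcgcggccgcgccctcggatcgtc
Pnpla2 (chr7:141454938-141455237, forward strand): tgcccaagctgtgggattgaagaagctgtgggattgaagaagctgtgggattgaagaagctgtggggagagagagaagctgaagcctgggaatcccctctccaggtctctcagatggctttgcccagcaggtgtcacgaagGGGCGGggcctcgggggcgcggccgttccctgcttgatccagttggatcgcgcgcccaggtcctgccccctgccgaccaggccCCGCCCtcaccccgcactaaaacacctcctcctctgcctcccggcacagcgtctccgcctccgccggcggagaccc

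Searched on both strands, the motifs were the sterol regulatory element TCACNCCAC, the NF-Y box CCAAT, the Sp1 box GGGCGG, the E-box CACGTG, and the nuclear receptor repeats known as DR1 and DR4. The Fasn promoter held 3 NF-Y boxes, starting 90, 62 and 59 bases before the start site, the last pair overlapping on opposite strands as CCAATTGG. That of Acsl3 held 5 Sp1 boxes and 1 NF-Y box, the last Sp1 box directly after the NF-Y box without overlap. Those of Fads2 and Abhd5 held 1 Sp1 box each and that of Pnpla2 held 2. Neither of the 2 listed promoters of Cidec, of which the first is shown, matched any of the motifs. Over the 30 genes, counting any listed promoter of a gene, 19 held an NF-Y box, where 41.0% of 26742 genes did, and 22 held an Sp1 box, where 38.5% did. The sterol regulatory element was found in Acsl1 and Mlxipl only, where 1.43% of all genes held it, and the E-box in 6 genes, where 8.11% did. The DR1 repeat was in Elovl1 alone and the DR4 repeat in none of the 30, with shares of 0.456% and 0.0150% of all genes. These matches describe letters in a window and not binding.

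Levels per length spanned a wide range among the genes. As normalized counts per kilobase of exon averaged over the 14 libraries, Tecr (6519), the last enzyme of the elongation cycle, was highest, followed by the droplet coat protein Plin2 (6276), the droplet fusion protein Cidec (3149), Abhd5 (2964), the coactivator of adipose triglyceride lipase, and Pnpla2 (2130), the lipase itself. At the other end were Acss2 (16.5), Me1 (7.22), Acacb (6.24) and Mlxipl (1.23). Thus 4 of the 5 highest genes belonged to the droplet and its breakdown. Fasn stood at 173, Scd2 at 586 and Scd1 at 266 on the same scale. This scale uses the deposited exon lengths, 1334 bases for Tecr and 3618 for Abhd5. Their transcripts hold 2637 and 6092 distinct 50-base stretches, so the places of Tecr and Abhd5 in the order are uncertain. So is the count of 4 droplet and breakdown genes among the 5 highest. Mlxipl had no read in any 2-week MHCII-low library, 14 and 2 reads in the controls and at most 60 reads in any library, so no fold change is given for it. The highest group mean fell in 2-week MHCII-low cells for 15 genes, 4-week MHCII-low cells for 9, 2-week MHCII-high cells for 5, controls for 4 and 4-week MHCII-high cells for 2.

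**Figure D1:**
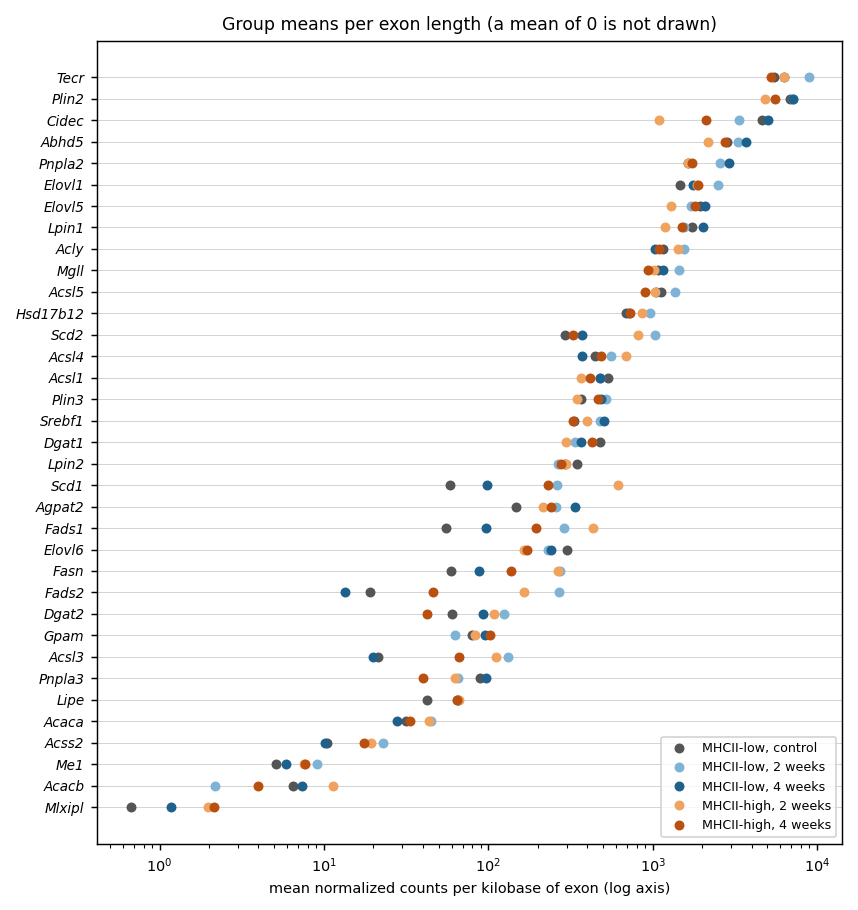
Group means of the 35 genes as normalized counts per kilobase of exon (x axis, log scale), 1 dot per group, genes ordered by their mean over all libraries. Tecr, Plin2, Cidec, Abhd5 and Pnpla2 lead, Mlxipl is lowest at 1.23, and the dots of Scd1, Fads1, Fasn, Fads2 and Acsl3 are spread widely between groups.

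The effect of bleomycin on MHCII-low cells was asked first. After 2 weeks, genes that make and desaturate fatty acids were higher than in controls: Fasn, all 4 desaturases Scd1, Scd2, Fads1 and Fads2, the elongase Elovl1 and the acyl-CoA synthetase Acsl3. These 7 of 35 genes passed the threshold, an adjusted p of 0.05 by limma, and none of the 35 passed as lower. Over all 17390 genes 1.91% passed in this comparison, 1.48% as higher and 0.426% as lower. The median log2 fold change was 0.47 over the 35 genes and -0.09 over all genes tested. The groups did not overlap, with every 2-week library above both controls, for 21 of the 35 genes, where 13.7% of all genes tested were separated in that direction. Both controls were above every 2-week library for 5, where 21.6% of all genes were.

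Fasn (ENSMUSG00000025153, chromosome 11, 120805846 to 120824547, reverse strand, GRCm38) was 629 and 534 normalized counts in the controls and 1732, 2459 and 3924 in 2-week MHCII-low cells. Its log2 fold change was 2.14 ± 0.29 (standard error; 4.41-fold; adjusted p 0.00012). Scd1 and Scd2, stearoyl-CoA desaturases that make oleate, both lie on chromosome 19 (44394451 to 44407709, reverse strand, and 44293676 to 44306864, forward strand). Scd1 was 198 and 369 in controls and 1956, 1010 and 849 at 2 weeks (2.13 ± 0.49; adjusted p 0.021). Scd2, the more abundant of the pair, was 1360 and 1839 in controls and 3815, 5607 and 7429 at 2 weeks (1.78 ± 0.31; adjusted p 0.0019). In both genes the lowest 2-week library lay above the highest control. Of the 50-base stretches of Scd1 transcripts 4.56%, and of those of Scd2 3.97%, also occur exactly in another gene's transcripts. The share of their reads that could come from another gene was not tested.

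Fads1 and Fads2, the delta-5 and delta-6 desaturases of polyunsaturated fatty acids, also lie on chromosome 19 (10182888 to 10196870, forward strand, and 10064164 to 10101503, reverse strand). Fads1 was 126 and 254 in controls and 1058, 986 and 964 at 2 weeks (2.48 ± 0.34; adjusted p 0.00017), with little spread between the 2-week libraries. Fads2 was 11.7 and 45.6 in controls and 309, 374 and 537 at 2 weeks (4.03 ± 0.69; adjusted p 0.0019). Its control values rest on 30 and 53 reads. Acsl3, which activates fatty acids for droplet formation (chromosome 1, 78657825 to 78707743, forward strand), was 131 and 54.2 in controls and 627, 619 and 487 at 2 weeks (2.75 ± 0.53; adjusted p 0.0052). Of its exon bases 5.6% overlap those of Utp14b on the same strand, which averaged 433 normalized counts against 322 for Acsl3. The part of Utp14b reads in the Acsl3 values was not tested. Elovl1, the elongase of saturated very long chains (chromosome 4, 118428093 to 118432953, forward strand), was 4198 and 3852 in controls and 7663, 5658 and 6992 at 2 weeks (0.74 ± 0.18; adjusted p 0.039), the smallest change of the 7.

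Fitted on only the 5 libraries compared, with unchanged log2 fold changes, none of the 7 calls was kept (Fads1, adjusted p 0.064; Fasn, 0.089; Elovl1, 0.14, the largest). In the fit over all groups the calls of Fasn and Fads1 were kept without any 1 library. Without control replicate 1 the calls of Scd2 (1.56, adjusted p 0.073), Fads2 (3.09, 0.094), Scd1 (1.68, 0.35) and Elovl1 (0.80, 0.20) were lost, leaving 3 of the 7, and without control replicate 3 those of Acsl3 (2.12, 0.21), Scd1 (2.58, 0.055) and Elovl1 (0.68, 0.41), leaving 4. Without 2-week MHCII-low replicate 1 Scd1 (1.77, 0.13) and Elovl1 (0.65, 0.18) were lost, as was Elovl1 without replicate 3 (0.71, 0.12).

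The other steps of the pathway did not pass at 2 weeks against control. Among the enzymes that supply Fasn, Acly was 4755 and 7496 in controls and 7572 to 8567 at 2 weeks (0.46 ± 0.19; adjusted p 0.29), Acaca, the cytosolic carboxylase, had a log2 fold change of 0.48 ± 0.29 (0.54) and Acss2 1.16 ± 0.53 (0.36). Tecr came closest among the genes not called (0.69 ± 0.19; adjusted p 0.063), with 6269 and 8381 in controls and 14729, 10051 and 10794 at 2 weeks. Srebf1 (chromosome 11, 60199089 to 60222581, reverse strand) was 1850 and 1891 in controls and 2573, 2019 and 3502 at 2 weeks (0.49 ± 0.29; adjusted p 0.52). The table does not divide the transcripts of Srebf1, whose protein is activated by cleavage, so this value says nothing of its activity. None of the 6 glycerolipid synthesis genes passed (median -0.27), nor did the 3 droplet coat genes (0.05) or the 5 lipolysis genes (0.40).

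**Figure D2:**
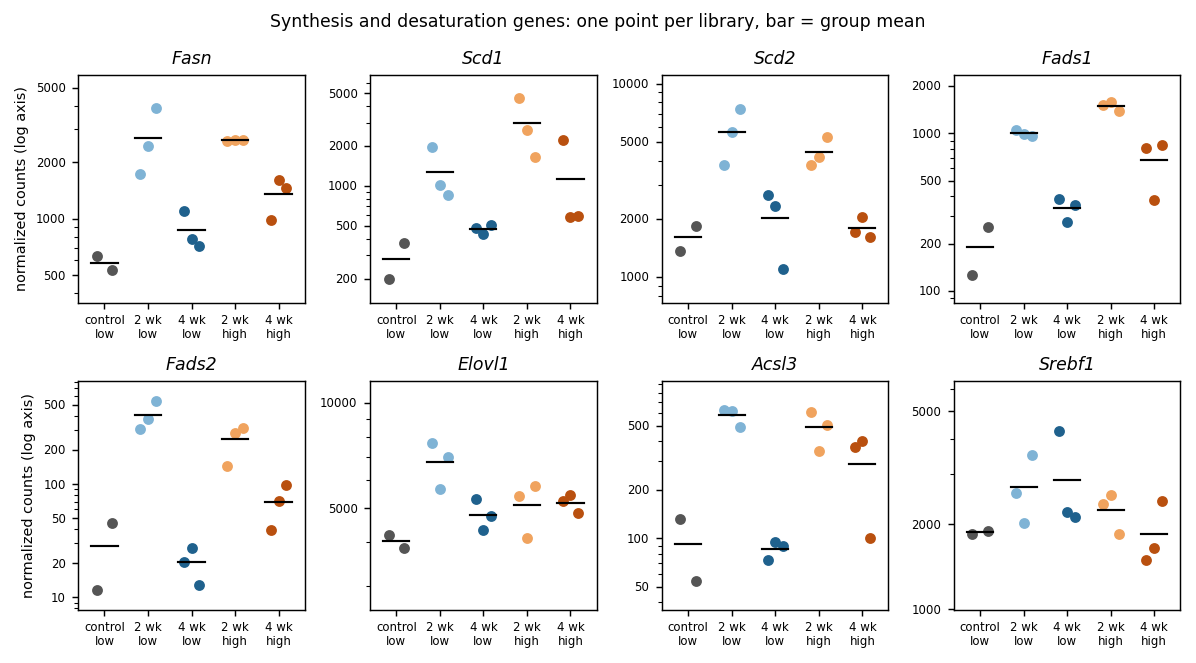
Normalized counts (y axis, log scale) of the 7 genes called at 2 weeks and of Srebf1 in every library by group, with the group mean as a bar. In all but Srebf1 the 3 MHCII-low libraries at 2 weeks lie above both controls and above the 3 at 4 weeks, and Srebf1 runs from 1498 to 4245 with overlapping groups at 2 and 4 weeks.

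Beside these genes, 21 regulators of sterol and lipid synthesis were examined, of which 20 were tested. Insig1 and Srebf2 passed as higher at 2 weeks and none as lower (median 0.17). Insig1, which holds the SREBP-SCAP complex in the endoplasmic reticulum and is itself an SREBP target, was 1318 and 1616 in controls and 4341, 5201 and 5628 at 2 weeks (1.78 ± 0.20; adjusted p 8.5e-06). Srebf2, which encodes the SREBP of cholesterol synthesis, was 1996 and 1859 in controls and 5016, 6268 and 8291 at 2 weeks (1.73 ± 0.26; adjusted p 0.00052). The third-smallest p in that list was of Nr1h3 (1.33 ± 0.41; adjusted p 0.11), the oxysterol receptor LXR alpha. Among 18 tested genes of other steps of synthesis and elongation none passed (median 0.05), with Slc25a1, the mitochondrial citrate carrier, leading (1.03 ± 0.30; adjusted p 0.093). Of 20 tested glycerolipid and droplet genes outside the 35, Lpcat1, which remodels phosphatidylcholine, passed as higher (0.93 ± 0.24; adjusted p 0.045). None of 21 fatty acid oxidation genes passed (median 0.11).

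Markers of other cells moved in the same comparison. Of 10 monocyte-derived or interstitial macrophage markers 6 passed as higher, and their summed level was 3814 to 6690 at 2 weeks against 1092 to 1827 in controls. Of 10 markers of alveolar type 2 cells, which synthesize surfactant lipid, 2 passed as higher, with sums of 6139 to 8586 against 5732 to 5908. Abca3 was a large part of these sums, at 3627 to 5702 against 4037 to 4088. Of the 10 markers, 8 had positive and 2 negative log2 fold changes. Sftpc was 505 to 1763 against 39.6 to 169, whereas Sftpd was 6.4 to 31.3 against 31.6 to 33.6. Mmp8 of the neutrophil list (2.24, adjusted p 1.9e-06; list sums of 9985 to 10793 against 4508 to 8052) and Car4 of the alveolar macrophage list (1.06, 0.0075) were also called higher. No club cell marker was called, with sums of 3113 to 10726 at 2 weeks and 12650 to 25743 in controls. The share of mitochondrial ribosomal RNA was 3.42% to 18.3% at 2 weeks and 21.7% to 24.1% in controls, and with it as a covariate 5 of the 7 calls were kept, those of Scd1 (1.52, adjusted p 0.17) and Elovl1 (0.65, 0.18) being lost. The part of the other cell types was not tested.

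Several of the genes called at 2 weeks against control were lower in the 4-week than in the 2-week MHCII-low libraries, which are separate samples. Fasn, Scd2, Fads1, Fads2 and Acsl3 passed as lower at 4 than at 2 weeks in MHCII-low cells, 5 of the 35 genes, and none passed as higher, where 0.857% of all genes tested passed, 0.748% as lower and 0.109% as higher. The median log2 fold change was -0.11 over the 35 genes and 0.03 over all genes. All 3 libraries at 4 weeks were below all 3 at 2 weeks for 13 of the 35 genes, where 6.76% of all genes were separated in that direction, and above for 3, where 7.22% were.

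Fads2 had the largest change. It was 20.6, 27.5 and 12.8 normalized counts at 4 weeks, resting on 24, 28 and 12 reads, below every 2-week library (-4.28 ± 0.62; 19.5-fold lower; adjusted p 0.00051). Acsl3 was 73.8, 95.1 and 89.6 at 4 weeks (-2.73 ± 0.47; 6.63-fold lower; adjusted p 0.0031), within the range of the controls. Fasn was 1103, 780 and 717 (-1.59 ± 0.26; adjusted p 0.0017), Scd2 was 2646, 2324 and 1102 (-1.52 ± 0.27; adjusted p 0.0044) and Fads1 was 386, 274 and 350 (-1.59 ± 0.31; adjusted p 0.0089). The call of Fads1 was lost without 2-week MHCII-low replicate 1 (-1.55, adjusted p 0.053) or 4-week MHCII-low replicate 2 (-1.45, 0.070). Fitted on only the 6 libraries compared, the calls of Fasn (adjusted p 0.18), Scd2 (0.28) and Fads1 (0.064) were lost. Scd1, at 484, 430 and 503, was below every 2-week library but did not pass (-1.33 ± 0.44; adjusted p 0.26). Insig1 (-1.51 ± 0.18; adjusted p 4.6e-05) and Srebf2 (-1.07 ± 0.24; adjusted p 0.029) also passed as lower among the 20 regulators, and no other gene of that list did. In this comparison 2 of 10 monocyte-derived or interstitial macrophage markers were called lower. None of the 10 alveolar type 2 markers was called in either direction, with type 2 sums of 6394 to 10901 at 4 weeks. The club cell marker Cyp2f2 was called higher (2.72, adjusted p 0.019), and the summed level of 5 club cell markers was 27412 to 37589 at 4 weeks against 3113 to 10726 at 2 weeks. Called lower were Mmp8 of the neutrophil list (-1.45, adjusted p 0.00025; list sums of 6563 to 7601 against 9985 to 10793), Col1a1 of the fibroblast and endothelium list (-5.51, 0.042) and Car4 of the alveolar macrophage list (-1.10, 0.0033). Their part in the differences was not tested.

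Against control, no gene of the 35 passed at 4 weeks by limma in MHCII-low cells, where 0.046% of all genes tested passed, 0.0345% as higher and 0.0115% as lower. At an unadjusted p under 0.05 there were 4 of the 35, where 6.12% of all genes tested were, and edgeR called none and DESeq2 called 1, Pnpla2 (0.83, adjusted p 0.037). The controls are the same 2 libraries as in the comparison at 2 weeks. Agpat2, which adds the second acyl chain in phosphatidic acid synthesis, and Pnpla2 had the smallest p-values. Agpat2 was 321 and 306 in controls and 1051, 450 and 647 at 4 weeks (1.10 ± 0.41; adjusted p 0.69), and Pnpla2 was 4478 and 5431 against 11700, 6544 and 8027 (0.79 ± 0.20; adjusted p 0.29). Fasn had a log2 fold change of 0.55 ± 0.29 (adjusted p 0.83), Fads1 0.89 ± 0.34 (0.70), Scd1 0.80 ± 0.49 (0.88), Scd2 0.26 ± 0.31 (0.96), Acsl3 0.02 ± 0.53 (1.00) and Fads2 -0.25 ± 0.69 (0.99). In Fasn, Fads1 and Scd1 every 4-week library was above both controls, and in Fads2 and Acsl3 the 4-week and control libraries overlapped. In all, 10 of the 35 genes were above both controls in every 4-week library, where 11.4% of all genes were, and 2 were below both, where 16% were.

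MHCII-high cells were then compared between the times. Scd2 alone passed as lower at 4 weeks than at 2 weeks, 1 of the 35 genes, where 1.07% of all genes passed, 0.759% as lower and 0.311% as higher. With library totals without mitochondrial ribosomal RNA as the scale 1 gene passed in each direction. With the GC trend removed 3 passed as higher and 1 as lower. Scd2 was 3790, 4167 and 5314 at 2 weeks and 1698, 2044 and 1604 at 4 weeks (-1.30 ± 0.27; adjusted p 0.023). Leaving out any single 2-week library ended this call (adjusted p 0.051, 0.074 and 0.099), as did leaving out 4-week replicate 1 (0.056) or fitting only the 6 libraries compared (0.10). Cidec came next (0.94 ± 0.23, higher at 4 weeks; adjusted p 0.053), with 1894, 1706 and 2470 at 2 weeks and 5057, 4020 and 2765 at 4 weeks, then Fads1 (-1.23 ± 0.31; 0.054), Fasn (-0.98 ± 0.26; 0.070) and Scd1 (-1.58 ± 0.44; 0.079). Fasn was 2595, 2635 and 2623 at 2 weeks and 989, 1616 and 1467 at 4 weeks. Fads2 was 144, 283 and 315 at 2 weeks and 39.5, 70.6 and 97.4 at 4 weeks (-1.84 ± 0.62; adjusted p 0.16). Every 4-week library lay below every 2-week library for 9 of the 35 genes, where 9.06% of all genes did, and above for 4, where 5.9% did. Insig1 passed as lower (-0.92 ± 0.18; adjusted p 0.012). In the same comparison 1 of 10 monocyte-derived or interstitial macrophage markers and 1 of 10 type 2 cell markers were called lower. Of 7 dendritic cell markers 1 was called higher. The part of these cells was not tested.

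**Figure D3:**
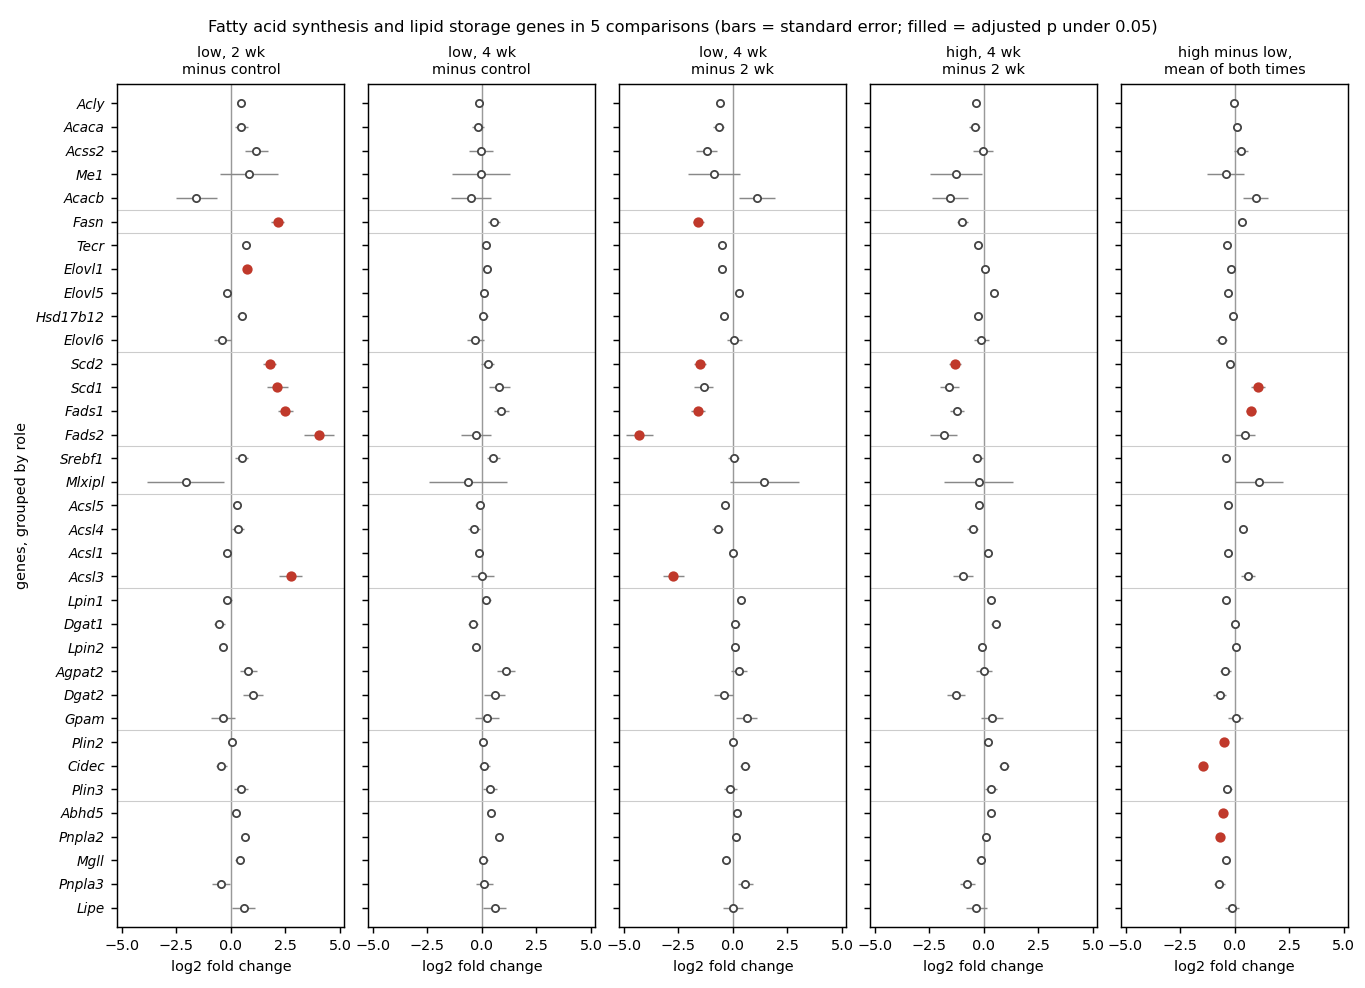
Log2 fold changes (x axis) of the 35 genes, grouped by role, in 5 comparisons, with standard errors as bars and filled points for an adjusted p under 0.05. The filled points in MHCII-low cells at 2 weeks are synthase, elongation, desaturation and Acsl3, whereas those on the negative side between MHCII-high and MHCII-low cells are droplet coat and lipolysis genes.

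The comparison of MHCII-high with MHCII-low cells asked what separates these populations after bleomycin. Averaged over both times, 4 genes of the lipid droplet and its breakdown passed as lower in MHCII-high cells, namely Cidec, Plin2, Pnpla2 and Abhd5, and the desaturases Scd1 and Fads1 passed as higher. Of these only Cidec passed at each time alone. For the mean of both times 6 of the 35 genes passed, 2 higher and 4 lower, where 7.21% of all genes tested passed, 5% as higher and 2.21% as lower. The 2 higher calls are thus near the share of all genes. At 2 weeks 2 passed, both lower (Cidec and Abhd5), where 2.87% of all genes passed, 2.29% as higher and 0.581% as lower. At 4 weeks 3 passed, all lower (Cidec, Pnpla2 and Pnpla3), where 2.5% of all genes passed, 1.96% as higher and 0.535% as lower. The median log2 fold change for the mean of both times was -0.20 over the 35 genes and 0.02 over all genes. For 4 genes every MHCII-high library was below every MHCII-low library of the same time at both times, and these were the 4 lower calls, where 1.97% of all genes were so separated. No gene of the 35 was separated as higher at both times, where 3.8% of all genes were. At 2 weeks alone 9 were separated as lower and 2 as higher, where 8.26% and 12.9% of all genes were, and at 4 weeks alone 7 and 4, where 8.13% and 8.26% were. The split of calls moved with the scaling: for the mean of both times 12 genes passed with the GC trend removed, all lower, and 9 with TMM factors, 1 higher and 8 lower.

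Cidec (ENSMUSG00000030278, chromosome 6, 113424634 to 113435760, reverse strand), which enlarges droplets by fusion, had the largest difference. It was 1894, 1706 and 2470 normalized counts in MHCII-high and 7370, 5596 and 5746 in the MHCII-low libraries of week 2 (-1.63 ± 0.23; 3.10-fold lower; adjusted p 0.00023). At 4 weeks it was 5057, 4020 and 2765 against 12604, 7047 and 8445 (-1.25 ± 0.23; adjusted p 0.0032), and the controls were at 10062 and 7047. All MHCII-high libraries were thus below all MHCII-low libraries, controls included. The mean difference was -1.44 ± 0.16 (adjusted p 4.9e-06), and no call of Cidec was lost without any 1 library. Fitted on only the 6 libraries compared, its call at 4 weeks was lost (adjusted p 0.17).

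Plin2 (chromosome 4, 86648386 to 86670060, reverse strand), the perilipin that coats droplets in most cells, was 17064, 17493 and 16238 in MHCII-high cells at 2 weeks and 19607, 16937 and 21636 at 4 weeks. In MHCII-low cells it was 30160, 22733 and 22564 at 2 weeks, 27872, 22189 and 25590 at 4 weeks and 26689 and 21800 in controls. The mean difference was -0.47 ± 0.11 (adjusted p 0.011), with adjusted p-values of 0.061 at 2 weeks and 0.25 at 4 weeks alone. Plin3, which coats nascent droplets, was 719 to 770 against 801 to 1331 at 2 weeks, and its mean difference did not pass (-0.33 ± 0.20; adjusted p 0.38).

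Among the lipases, Pnpla2 (chromosome 7, 141455198 to 141460743, forward strand), which encodes adipose triglyceride lipase, was 5500, 5023 and 4362 in MHCII-high and 8030, 7320 and 7817 in the MHCII-low libraries of week 2 (-0.64 ± 0.18; adjusted p 0.061). At 4 weeks it was 4889, 5129 and 5825 against 11700, 6544 and 8027 (-0.69 ± 0.18; adjusted p 0.045), and the mean difference was -0.67 ± 0.13 (adjusted p 0.0020). The controls, at 4478 and 5431, lay near the MHCII-high level. Its coactivator Abhd5 (chromosome 9, 122351608 to 122381524, forward strand) was 8258, 8095 and 7300 against 12357, 12530 and 10978 at 2 weeks (-0.60 ± 0.14; adjusted p 0.017) and 9068, 10573 and 10158 against 13260, 13459 and 13675 at 4 weeks (-0.44 ± 0.14; adjusted p 0.099). The mean difference of Abhd5 was -0.52 ± 0.10 (adjusted p 0.0014). Its controls, at 9576 and 10870, lay above the MHCII-high libraries of week 2 and overlapped those of week 4. Every MHCII-low library after bleomycin was above both controls. Of the exon bases of Abhd5 15.95% overlap those of an antisense gene, A730085K08Rik, which averaged 89.4 normalized counts against 10730 for Abhd5.

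Pnpla3, a relative of Pnpla2 that also acts on droplets, was 266, 95.7 and 198 in MHCII-high and 397, 545 and 414 in the MHCII-low libraries of week 4 (-1.38 ± 0.36; adjusted p 0.042). At 2 weeks it was 297, 323 and 254 against 264, 338 and 305, with overlapping groups (-0.05 ± 0.36; adjusted p 0.97). Monoglyceride lipase (Mgll) did not pass (mean difference -0.40 ± 0.14; adjusted p 0.077), nor did hormone-sensitive lipase (Lipe; -0.14 ± 0.33; 0.87). In glycerolipid synthesis Lpin1, a phosphatidic acid phosphatase, had the smallest p without passing (-0.41 ± 0.13; adjusted p 0.063).

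**Figure D4:**
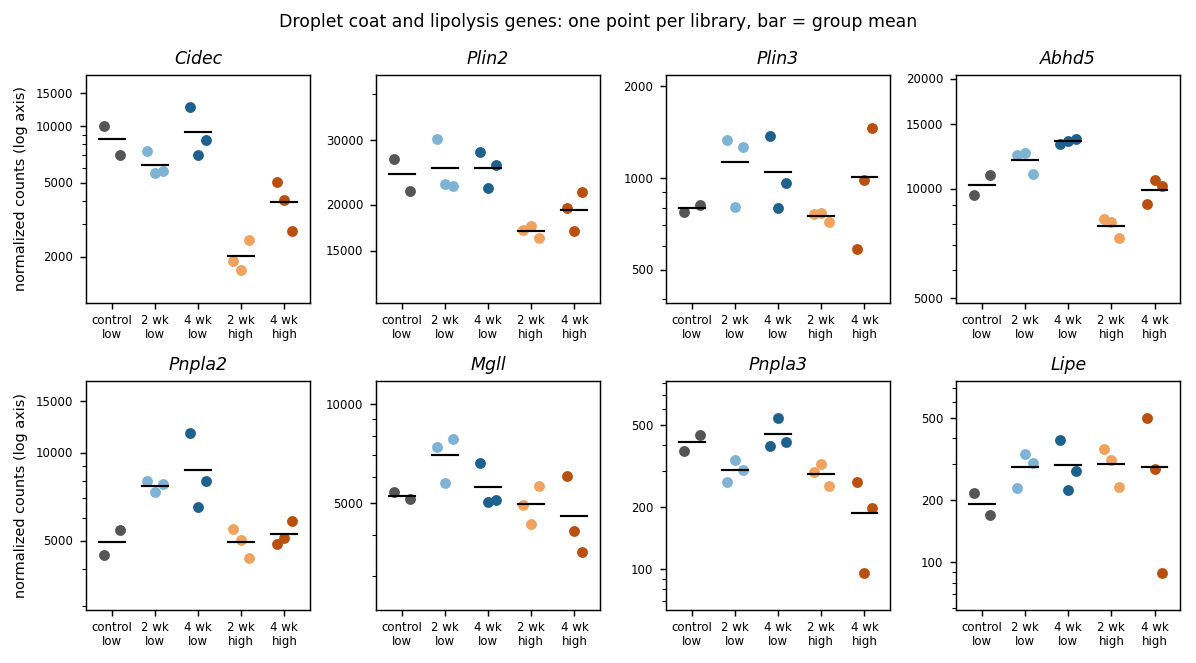
Normalized counts (y axis, log scale) of 8 droplet coat and lipolysis genes in every library by group, with the group mean as a bar. In Cidec, Plin2, Abhd5 and Pnpla2 the 3 MHCII-high libraries lie below the 3 MHCII-low libraries of the same time, while the groups of Lipe overlap.

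Scd1 was the desaturase with the largest difference in the other direction. It was 4599, 2632 and 1645 in MHCII-high cells at 2 weeks against 1956, 1010 and 849 in MHCII-low cells, with overlapping groups, and 2202, 579 and 588 against 484, 430 and 503 at 4 weeks (mean difference 1.07 ± 0.31; adjusted p 0.038). Fads1 was 1518, 1576 and 1391 against 1058, 986 and 964 at 2 weeks, without overlap, and 808, 377 and 839 against 386, 274 and 350 at 4 weeks (0.75 ± 0.22; adjusted p 0.038). Neither passed at 2 or 4 weeks alone. Fasn (mean difference 0.34 ± 0.18; adjusted p 0.30), Scd2 (-0.20 ± 0.19; 0.60), Fads2 (0.47 ± 0.44; 0.59) and Acsl3 (0.62 ± 0.33; 0.30) did not pass. The 2-week MHCII-high means of Scd1 and Fads1 were the highest of any group. The lowest of these Scd1 libraries (1645) lay below single libraries of other groups (1956 and 2202). In control MHCII-low cells Scd1 was 198 and 369 and Fads1 was 126 and 254. Control MHCII-low and 2-week MHCII-high cells differ in both treatment and MHCII level and were not tested against each other.

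The calls of Plin2, Pnpla2 and Abhd5 for the mean of both times were kept without any 1 library. That of Scd1 was lost without 2-week MHCII-low replicate 2 or 3, any 4-week MHCII-low replicate, 2-week MHCII-high replicate 1 or 2 or 4-week MHCII-high replicate 1 (0.75 to 1.09, adjusted p 0.065 to 0.12), and that of Fads1 without any 2-week library, 4-week MHCII-low replicate 2 or 3 or 4-week MHCII-high replicate 1 or 3 (0.65 to 0.78, adjusted p 0.055 to 0.089). At 2 weeks the call of Abhd5 was lost without any library compared except MHCII-low replicate 3 (-0.63 to -0.55, adjusted p 0.056 to 0.071). At 4 weeks that of Pnpla2 was lost without any library compared except MHCII-low replicate 2 (-0.76 to -0.46, adjusted p 0.051 to 0.24), and that of Pnpla3 without any MHCII-low replicate or MHCII-high replicate 2 (-1.46 to -0.96, adjusted p 0.084 to 0.17). These 3 calls were also lost when only the 6 libraries compared were fitted (adjusted p 0.054, 0.32 and 0.31).

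Several other measures moved with MHCII level. With the mitochondrial ribosomal RNA share as a covariate, the mean differences of Plin2 (-0.30, adjusted p 0.26) and Pnpla2 (-0.53, adjusted p 0.086) no longer passed, while those of Cidec, Abhd5, Scd1 and Fads1 did. The same covariate ended the call of Abhd5 at 2 weeks (-0.65, adjusted p 0.051) and those of Pnpla2 (-0.58, 0.16) and Pnpla3 (-1.27, 0.13) at 4 weeks, and kept that of Cidec at both times. For the mean of both times 6 of the 10 alveolar macrophage markers were called lower and none higher in MHCII-high cells, and 8 of the 10 monocyte-derived or interstitial macrophage markers were called higher, with summed levels of 17422 to 50809 in MHCII-high and 1364 to 6690 in MHCII-low cells after bleomycin. Of the 10 alveolar type 2 markers, 5 were called higher (sums of 9892 to 18204 against 6139 to 10901), with none at 0. Of the dendritic cell markers 5 of 7 were called higher and of the lymphocyte markers 5 of 7 tested. Club cell markers were called lower in 2 of 5. The 1 call in the eosinophil list, of 4 tested, was Siglecf (-0.99, lower), the sort marker, which is also among the 6 alveolar macrophage markers, whereas Ccr3 (0.42, adjusted p 0.72) and Il5ra (0.56, 0.84) were not called. None of the neutrophil, fat cell or fibroblast and endothelium markers was called. The part of these cells in the differences was not tested.

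In the lists of related genes, 3 of 21 fatty acid oxidation genes passed as lower for the mean of both times and none as higher (median -0.33). They were Hadha, of the mitochondrial trifunctional protein (-0.51 ± 0.10; adjusted p 0.0031), Etfb, of the electron transfer flavoprotein (-0.91 ± 0.18; 0.0033), and Acadl, long-chain acyl-CoA dehydrogenase (-0.91 ± 0.25; 0.032). Hadha averaged 9921 ± 1073 normalized counts (SD, n = 3) in MHCII-high and 15260 ± 1354 (SD, n = 3) in MHCII-low cells 2 weeks after bleomycin. Of 20 regulators only Pparg, the nuclear receptor that alveolar macrophages need for lipid handling, passed (-0.37 ± 0.10; adjusted p 0.027). Acss1 (-0.60 ± 0.13; 0.0070) and Cyb5r3 (-0.59 ± 0.15; 0.020), the reductase that supplies electrons to desaturases, were lower and Elovl7 (1.24 ± 0.28; 0.0079) higher among 18 genes of other synthesis steps. Lpcat1 passed as higher (0.69 ± 0.15; adjusted p 0.0055).

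Whether the high-minus-low difference changed between 2 and 4 weeks was tested as an interaction. No gene of the 35 passed by limma (smallest adjusted p 0.68), where 0% of all genes tested passed. At an unadjusted p under 0.05 there were 5 of the 35, where 5.68% of all genes were, and edgeR and DESeq2 also called none. Fads2 (2.44 ± 0.88; adjusted p 0.68) and Acsl3 (1.78 ± 0.67; adjusted p 0.70) had the smallest p-values. In both, MHCII-high and MHCII-low libraries overlapped at 2 weeks and every MHCII-high library was above every MHCII-low library at 4 weeks, with Acsl3 at 368, 399 and 101 against 73.8, 95.1 and 89.6.

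Of the 35 genes, 12 passed in at least 1 of the 8 comparisons and 23 in none, where 9.32% of all genes tested passed in at least 1. Those 23 include Acly, Acaca, Acacb, Acss2 and Me1 of precursor supply, 4 of the 5 elongation genes, both transcription factors, 3 of the 4 acyl-CoA synthetases and all 6 genes of glycerolipid synthesis. Acsl1, which activates long-chain fatty acids, was 2961 to 5725 normalized counts over all 14 libraries, Acsl5 2375 to 5070 and Lpin2 2931 to 4381. Dgat1, which completes triglyceride, was 749 to 1471, and Dgat2, which does the same, 80.0 to 367. Among the largest changes without a call were those of Acacb, the mitochondrial carboxylase, at 132, 59.0 and 136 in MHCII-high against 15.7, 30.3 and 17.1 in the MHCII-low libraries of week 2 (2.28 ± 0.83; adjusted p 0.16), where 7 to 31 reads lie behind the MHCII-low values. For Acaca 30.4% and for Me1 28.3% of the 50-base stretches of their transcripts also occur in other genes or pseudogenes, so their values are uncertain.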

How the data were processed

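The values are gene counts divided by a library size factor, a signal that the authors deposited as normalized counts with 1 decimal, per the file headers. STAR, DESeq2 and the build mm10 are named in the submitters' processing notes, without roles or versions. For the counting program and its use of strand, no source used here gives a name. The deposited columns of GC percent and of exon length (bases), per the file headers, were used as given by the authors. Gene spans were identical to GENCODE M21 (GRCm38) for 25 of the 35 genes and overlapped for all 35.

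Within a library the low values are multiples of what 1 read is worth (0.39 to 2.24 normalized counts), which allowed reads to be recovered. All values under 100 reads (100%) came out whole within the rounding of 0.1, a weak check in control replicate 1, where a read is worth only 0.39. No molecular identifiers are described, so reads are not independent molecules.

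Tests were limma 3.58.1 (trended variance) on log2(value + 1), which understates the change of low genes, with 1 coefficient per group, all 14 libraries in 1 fit and Benjamini-Hochberg adjustment over the 17390 genes in each of 8 comparisons. The threshold was an adjusted p of 0.05. Standard errors follow log2 fold changes after ±. Named genes were all that passed in any comparison, the 5 highest per kilobase and, where none passed, the 2 with the smallest p; from each pathway list at most the 3 genes of smallest p were named. Genes outside this rule were named, after their values were seen, to account for a role. edgeR 4.0.16 and DESeq2 1.42.0 on recovered reads, other scalings, filters, a GC correction, covariates and left-out libraries were alternatives. The fits were tested on simulated data. The 35 genes and the other lists were chosen with earlier results of these data known. Gpat3 was matched by its older symbol in the table.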

Additional observations from a re-analysis of the deposited data

How the results depend on the processing

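Over the 28 single-gene results, each of the 12 genes called with each comparison that called it and the 2 genes with the smallest p where none passed, 515 values under other settings gave no reversed sign: 429 stayed on the same side of the threshold, 85 lost their call and 1 gained one. Only 8 of the 28 results stayed on the same side under every setting. Called among them were Cidec at 2 weeks and for the mean, Abhd5 for the mean, and Fads2 and Acsl3 at 4 against 2 weeks. The rest were uncalled, namely Agpat2 at 4 weeks against control, and Fads2 and Acsl3 in the interaction. Every other call was lost under some setting. Counts of called genes also moved. For MHCII-high against MHCII-low at 2 weeks (2 genes) they were 4 with edgeR, DESeq2 or TMM factors before limma, 11 with the GC trend removed and 1 with only the libraries compared. At 4 weeks (3 genes) they were 7 with DESeq2 (3 higher, 4 lower), 1 with no filter, 1 with the mitochondrial rRNA covariate and 0 with only the libraries compared. For the mean of both times (6 genes, 2 higher and 4 lower) they were 10 with edgeR (2 and 8), 11 with DESeq2 (2 and 9), 12 with the GC trend removed (0 and 12) and 9 with TMM factors (1 and 8). For MHCII-low cells at 2 weeks against control (7 genes) the count was 0 with only the 5 libraries compared, and 1 at 4 weeks with DESeq2. For 4 against 2 weeks in MHCII-low cells (5 genes) it was 2 with only the libraries compared. In MHCII-high cells (1 gene) it was 0 with no filter or only the libraries compared and 7 with DESeq2 (2 higher, 5 lower). It was 2 with TMM factors or with library totals without mitochondrial rRNA. With the GC trend removed it was 4 (3 higher, 1 lower), and with the covariate 3.

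Leaving out 1 library gave 1 to 2 genes for MHCII-high against MHCII-low at 2 weeks, 1 to 3 at 4 weeks, 4 to 7 for the mean, 3 to 8 for MHCII-low at 2 weeks against control, 4 to 5 for MHCII-low and 0 to 3 for MHCII-high at 4 against 2 weeks. In MHCII-high cells the count of 1 became 0 without any 2-week replicate, 2 without 4-week replicate 1 and 3 without 4-week replicate 3. Same-numbered libraries showed weakly correlated deviations (r of 0.009 to 0.107 in the 6 pairs of MHCII-high and MHCII-low libraries, all positive). MHCII-high and MHCII-low libraries of the same time with unlike numbers gave -0.124 to 0.077. These small values do not decide whether the number is a pairing. The labels do not say whether same-numbered libraries share a mouse, and the main fit did not use the number. A replicate block gave 1 gene at 4 weeks in place of 3, without Pnpla2 (adjusted p 0.053) and Pnpla3 (0.091), 2 in MHCII-high cells at 4 against 2 weeks, 3 at 2 weeks, 7 for the mean and 8 for 2 weeks against control.

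Scaling moved the median of all genes. At 2 weeks against control it went from -0.09 to 0.22 with the GC trend removed (0.76 over the 35 genes). With library totals without mitochondrial rRNA it was -0.28 (0.27 over the 35). For MHCII-high against MHCII-low at 2 weeks it went from 0.08 to -0.26 with the GC trend removed (-0.55 over the 35). Depth limits the 10 genes with fewer than 100 reads in some library: Acss2, Me1, Acacb, Fads2, Mlxipl, Acsl3, Dgat2, Gpam, Pnpla3 and Lipe.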

Other observations

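Some genes that passed in no comparison had a single library far from the others of its group. In MHCII-high cells at 4 weeks, replicate 3 had 399 normalized counts of Elovl6, the elongase of palmitate, where replicates 1 and 2 had 1130 and 1545. The same library had 149 of Gpam, the first enzyme of glycerolipid synthesis, where the others had 510 and 516, and 88.8 of Lipe, where they had 502 and 282. It had no read of Me1, where they had 17 and 34 reads. Acsl4, which activates arachidonic acid, was 1066 in replicate 1 of the 4-week MHCII-low cells and 2523 and 2421 in replicates 2 and 3. These genes were chosen after their values were seen.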
